A study of Homo sapiens with 12 samples.

Results

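The 94 protein-coding genes on chromosomes 1 to 22 whose symbol begins with KCN were taken from the 19974 protein-coding genes of a RefSeq table of the GRCh38.p14 assembly on chromosomes 1 to 22 and X. The members were chosen by symbol and chromosome alone. They comprise 29 voltage-gated (Kv) pore genes, 10 silent or modifier Kv genes, 16 inward rectifiers (Kir) and 15 two-pore-domain (K2P) leak channel genes. The rest are 8 genes of the calcium- or sodium-activated channel families and 16 auxiliary or regulatory genes. Their histone marks were read from CUT&RUN, an assay in which an antibody bound to chromatin directs a nuclease to release the DNA beneath it. The cells were MKL-1, an established human Merkel cell carcinoma line. They were kept for 6 days either with 3 µM EPZ011989, which blocks EZH2, the enzyme that methylates H3K27, in 1% ethanol, or with 1% ethanol alone (vehicle), with medium renewed on day 3. Each culture was divided between antibodies to H3K27me3, to H3K4me3 and control IgG, giving 12 libraries in 6 groups of 2 replicates. The replicates are duplicate treatments of 1 cell line, so p-values describe the spread between those cultures and libraries.

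Potassium channels let potassium leave or enter the cell and thereby set the resting potential and shape electrical firing. Pore subunits of the Kv, Kir, K2P, SK and BK kinds are joined by auxiliary subunits that change their gating or surface level, and excitable cells each use a selection of them. H3K27me3 is the mark written by Polycomb repressive complex 2 through EZH2 and is found at silenced developmental genes. H3K4me3 is found at active or poised gene starts. A start that carries both is often called bivalent, although peak lists from separate libraries cannot show that both marks sit on the same nucleosome or in the same cell.

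The value given for a gene is the number of base pairs inside a library's peaks within 2500 bp of either gene end, at most 10002 bp for a long gene. A single gene end contributes at most 5001 bp. A gene was called marked in vehicle with any peak in its window in both vehicle libraries. On chromosomes 1 to 22 and X the vehicle H3K27me3 lists held 40782 and 44287 peaks, and the EPZ011989 lists 363 and 22. The H3K4me3 lists held between 21086 and 23804 peaks. A background solved from the peak statistics, which stands in for depth because counts of reads were not analysed here, was 1.12 and 1.63 fragments per base in the vehicle H3K27me3 libraries against 0.373 and 0.148 with EPZ011989. For H3K4me3 it was 0.572 and 0.857 in vehicle against 1.48 and 1.24 with EPZ011989, so the treated libraries were the shallower for H3K27me3 and the deeper for H3K4me3. The part of these depth differences in the results was not tested. The IgG lists held 4 to 38 peaks, and none lay in the window of a KCN gene. All 12 Merkel cell carcinoma markers examined, among them ATOH1, SOX2, INSM1 and KRT20, had H3K4me3 in all 4 libraries, and the 3 keratinocyte markers KRT5, KRT14 and TP63 had none. H3K4me3 was also listed in all 4 libraries at 3 of 5 fibroblast markers (COL1A1, COL1A2 and DCN), 1 of 4 lymphoid or myeloid (CD14), 1 of 3 endothelial (CDH5) and 1 of 3 muscle markers (MYOD1).

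The first comparison was between the KCN genes and all protein-coding genes in vehicle cells. Both vehicle libraries had H3K27me3 at 58 of the 94 KCN genes, or 61.7%, beside 36.9% of all genes. A further 9 had it in 1 library and 27 in neither. H3K4me3 was present in both libraries at 52 members, or 55.3%, beside 65.0% of all genes. Both marks were in the window of 34 members (36.2%, beside 24.2% of all genes), and H3K27me3 without H3K4me3 in that of 22 (23.4%, beside 11.6%). H3K4me3 alone was seen at 14 members (14.9%, beside 32.2%), and 13 had neither (13.8%, beside 19.2%). For the other 11 at least 1 mark was listed in a single library. The median covered length among marked windows was 5001 bp for H3K27me3 (3509 bp over all marked genes) and 2325 bp for H3K4me3 (2626 bp over all). Of the 68 members with no end of another protein-coding gene in their window, 40 had H3K27me3 in both vehicle libraries.

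The subfamilies differed in which marks they carried. Among the 15 K2P genes (KCNK), which encode the background leak channels, 13 had H3K27me3 in both vehicle libraries and 8 of these had no vehicle H3K4me3. Only KCNK2 and KCNK7 had neither mark, and none of the 15 had H3K4me3 alone. The 8 KCNH genes, which encode the ether-à-go-go, ERG and ELK channels, lay at the other end. All 8 had H3K4me3 in both vehicle libraries, and KCNH2, KCNH5, KCNH7 and KCNH8 had no H3K27me3. Of the 16 Kir genes (KCNJ), 8 had both marks, 2 had H3K27me3 alone (KCNJ1 and KCNJ15), KCNJ3 had H3K4me3 alone and 4 had neither. Among those with both, KCNJ9 had only 283 and 7 bp of H3K4me3, with an end of IGSF8 in its window. KCNJ4 and KCNJ14 had neither mark in vehicle around their annotated starts. Ends of CYTH2 and GRWD1 lie in the window of KCNJ14. Of the genes for M-current and related channels, KCNQ1 and KCNQ5 had both marks and KCNQ3 had H3K4me3 with H3K27me3 in 1 library. KCNB2, a delayed rectifier gene, carried both marks. Of the fast Kv3 channel genes, KCNC1 and KCNC4 had H3K4me3 alone and KCNC2 had neither mark. No test was made between subfamilies, whose sizes run from 1 to 16 genes.

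**Figure D1:**
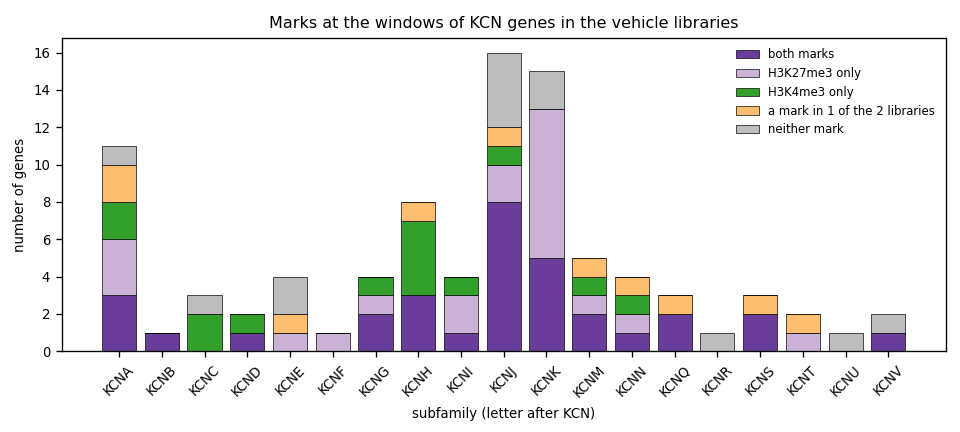
Number of KCN genes (vertical axis) in each subfamily, named by the letter after KCN (KCNI holds the KCNIP genes), by the marks in their windows in the 2 vehicle libraries, with a few members not shown. The KCNK bar is made up of genes with both marks, with H3K27me3 only and with neither, and the KCNH bar holds no gene with H3K27me3 only.

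Sequences at gene starts are shown because the start classes differed in CG dinucleotides, and because 3 of these starts had H3K4me3 only after treatment. RefSeq promoter sequences of GRCh38.p14, each running from 250 bases before to 50 after the annotated start, matched 70 of the 94 members. Each is printed 5′ to 3′ on the gene's strand with CG in capitals. KCNK1 (chr1:233613856-233614155, plus strand), KCNK6 (chr19:38319595-38319894, plus strand) and KCNA6 (chr12:4809084-4809383, plus strand) had H3K27me3 and no H3K4me3 in vehicle. KCNC1 (chr11:17734531-17734830, plus strand) had H3K4me3 alone. KCNJ13 (chr2:232776516-232776815, minus strand), a Kir gene, had neither mark.
KCNK1: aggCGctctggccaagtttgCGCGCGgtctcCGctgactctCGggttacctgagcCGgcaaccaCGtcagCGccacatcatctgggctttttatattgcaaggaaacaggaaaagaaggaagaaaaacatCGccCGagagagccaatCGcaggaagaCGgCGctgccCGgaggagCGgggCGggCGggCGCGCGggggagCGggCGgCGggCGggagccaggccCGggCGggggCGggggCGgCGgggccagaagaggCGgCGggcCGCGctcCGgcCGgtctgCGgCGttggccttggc
KCNK6: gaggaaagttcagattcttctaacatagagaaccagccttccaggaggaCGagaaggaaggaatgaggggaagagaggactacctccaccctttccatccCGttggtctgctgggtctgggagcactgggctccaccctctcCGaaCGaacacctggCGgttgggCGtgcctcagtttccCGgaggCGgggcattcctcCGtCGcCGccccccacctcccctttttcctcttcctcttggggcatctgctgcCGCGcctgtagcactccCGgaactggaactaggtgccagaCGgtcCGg
KCNA6: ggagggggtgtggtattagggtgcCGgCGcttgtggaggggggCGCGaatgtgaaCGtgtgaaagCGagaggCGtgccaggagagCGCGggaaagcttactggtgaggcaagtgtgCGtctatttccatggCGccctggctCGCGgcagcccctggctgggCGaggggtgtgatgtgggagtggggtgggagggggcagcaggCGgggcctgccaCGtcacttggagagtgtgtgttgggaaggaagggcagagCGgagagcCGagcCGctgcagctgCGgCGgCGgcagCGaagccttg
KCNC1: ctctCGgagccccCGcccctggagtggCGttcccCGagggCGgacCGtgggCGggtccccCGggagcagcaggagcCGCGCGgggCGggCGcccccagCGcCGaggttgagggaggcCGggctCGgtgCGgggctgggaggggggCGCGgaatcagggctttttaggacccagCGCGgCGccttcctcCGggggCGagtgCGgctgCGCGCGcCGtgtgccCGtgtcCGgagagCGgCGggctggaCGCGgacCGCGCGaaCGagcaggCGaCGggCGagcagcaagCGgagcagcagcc
KCNJ13: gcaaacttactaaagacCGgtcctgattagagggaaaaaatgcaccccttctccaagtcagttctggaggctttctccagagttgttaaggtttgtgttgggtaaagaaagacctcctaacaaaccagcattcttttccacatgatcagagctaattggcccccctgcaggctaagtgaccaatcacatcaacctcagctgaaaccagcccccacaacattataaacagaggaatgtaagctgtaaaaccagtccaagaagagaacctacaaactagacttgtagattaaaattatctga
The KCNK1 sequence holds 38 CG, KCNK6 16, KCNA6 23, KCNC1 44 and KCNJ13 a single one. The median over all starts was 22, so KCNK1, KCNA6 and KCNC1 lay above it and KCNK6 and KCNJ13 below.

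The same order held over the matched starts, taking the 5001 bp around each start as the window. The median number of CG per 300 bases was 33 at the 17 KCN starts with both marks and 33 at the 15 with H3K4me3 alone. It was 16 at the 17 with H3K27me3 alone and 5 at the 15 with neither. Over all genes the medians were 27, 27, 8 and 4, so the median of H3K27me3-only starts was below that of starts with H3K4me3 in both sets. Within the KCN starts with H3K27me3 alone the count ran from 4 (KCNK16) to 45 (KCNA7). The letters GGGCGG, the core that Sp1 family factors bind, were searched on both strands and were in 58.6% of the KCN starts and 58.5% of all starts. They were in 14 of 17 KCN starts with both marks, beside 74.6% of such starts over all genes. With neither mark they were in 3 of 15, beside 24.1%, so the contrast between these classes was also present over all genes. The GGGCGG letters overlap the CG counted above. TATAAA, the TATA box letters, was in 8.57% of KCN starts and 9.64% of all. The E-box letters CAGCTG were in 24.3% beside 17.7% of all, and CAGATG, another E-box, in 18.6% beside 11.7%. By the start window, 36 of the 70 members had H3K27me3 in both vehicle libraries (51.4%, beside 32.4% of the 15812 genes with a start) and 33 had H3K4me3 (47.1%, beside 65.7%). For 9 members, among them KCNA3 and KCNIP3, the annotated start was not at either listed end of the gene but inside it. At the inner start of KCNIP3, which encodes a Kv4-binding calcium sensor, H3K4me3 covered 955 and 946 bp in vehicle and 1346 and 1243 bp with EPZ011989, and the window at its gene ends had none.

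Vehicle H3K27me3 filled the whole window of 7 members in both libraries. They include KCNA7, KCNF1, KCNK16, KCNK17 and KCNN1. At a further 10 members it covered exactly 1 gene end and its surroundings, 5001 bp in both libraries, as at KCND3, KCNMA1 and KCNQ5. The neighbours KCNK16 and KCNK17 on chromosome 6 shared a merged region of 70.9 kb, KCNA7 (chr19:49067397-49072699) lay in one of 49.2 kb, and KCNA6 in one of 31.4 kb. In all, 95 merged regions touched KCN windows, with a median length of 5.14 kb, and 10 were 20 kb or longer. The whole gene with 2500 bp added at each end was also read. More than 50% of it was covered in both vehicle libraries at 17 of the 94 members (18.1%, beside 8.18% of all genes). At 22 members it had no covered base.

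Neighbouring members were also read over the span from the first to the last gene, within which H3K27me3 lay in separate merged regions except at KCNK16 and KCNK17. The KCNA6, KCNA1 and KCNA5 genes, 3 Kv1 channel genes within 237.5 kb of chromosome 12, had 53.9% and 59.5% of that span covered by H3K27me3 in the vehicle libraries. Over the 383.1 kb that hold KCNIP1 and KCNMB1 on chromosome 5 the shares were 64.2% and 70.2%. Over the 134.0 kb from KCNK5 to KCNK16 on chromosome 6 they were 65.9% and 70.3%. The span of the other Kv1 group, KCNA10, KCNA2 and KCNA3 on chromosome 1, was covered to 9.2% and 14.5%. With EPZ011989 no H3K27me3 peak was listed in any of these spans. The covered share was thus higher in the chromosome 12 Kv1 group than in the chromosome 1 group in both vehicle libraries.

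**Figure D2:**
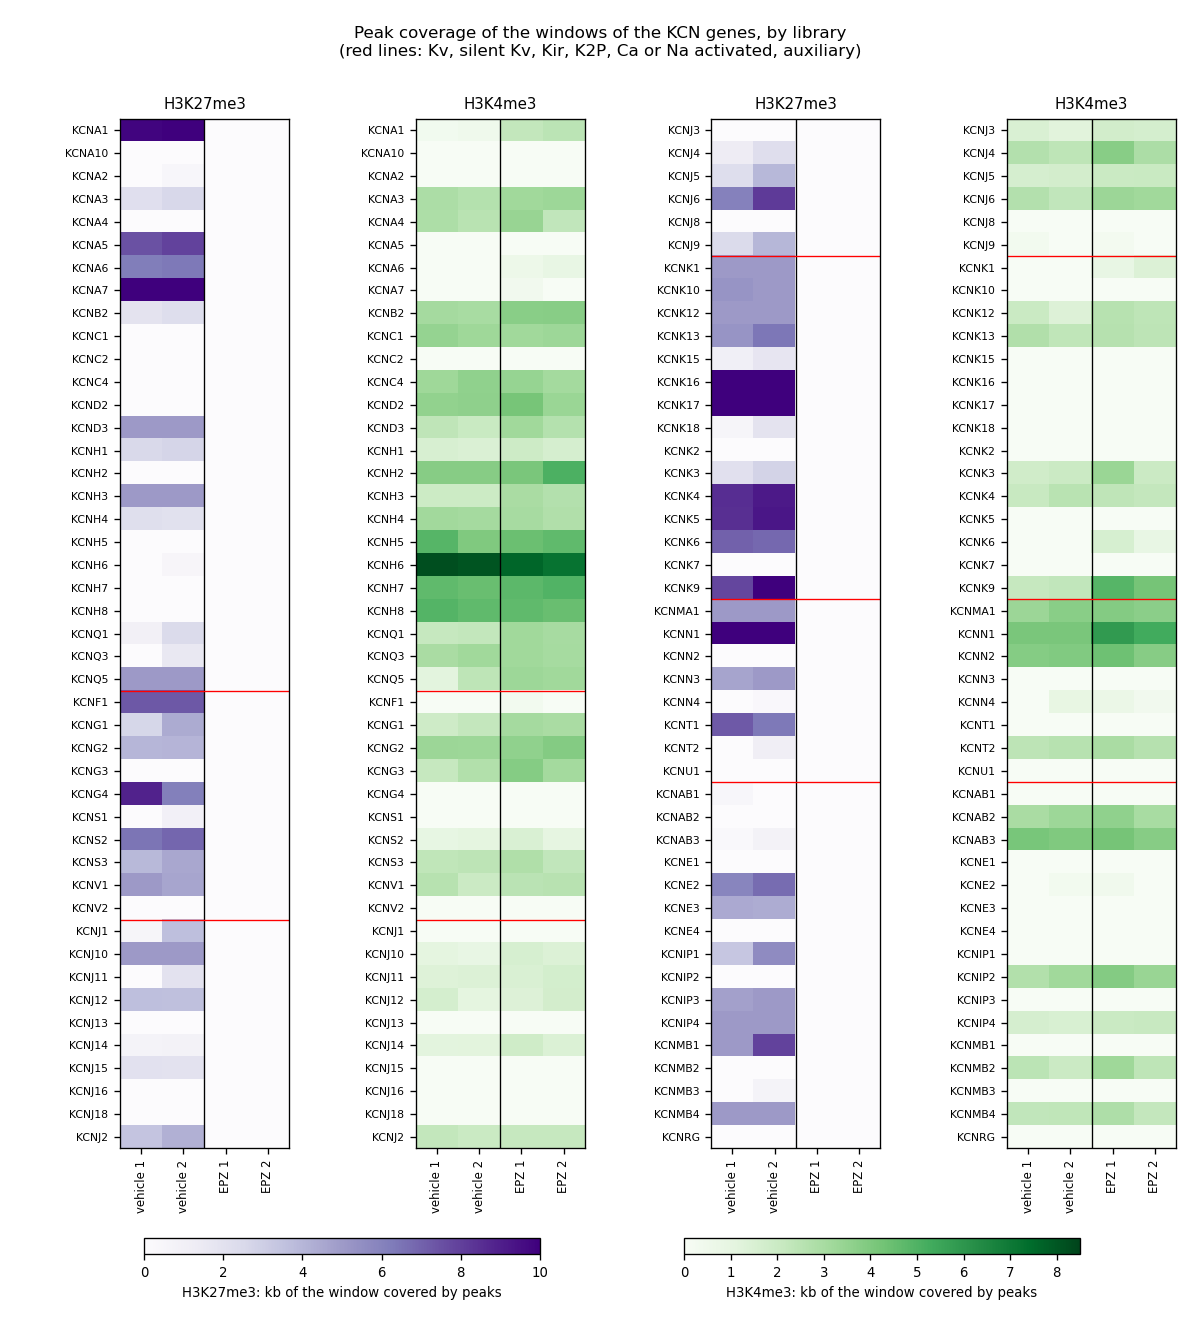
Kilobases of each KCN gene's window covered by peaks, as colour, in the 4 H3K27me3 (purple) and 4 H3K4me3 (green) libraries, 1 row per gene for the members shown, with red lines between the 6 functional groups. No row has purple in an EPZ011989 column, and the widest green row is KCNH6.

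The second comparison was of H3K27me3 with and without EZH2 inhibition. No KCN window held an H3K27me3 peak in either EPZ011989 library, beside 0.205% of all genes with one in at least 1 of the 2. The windows of 59 and 66 members had a peak in the vehicle libraries, with means over the 94 members of 3134 and 3501 bp. All 58 members marked in both vehicle libraries thus had none with EPZ011989, and neither did 7344 of the 7372 genes so marked genome-wide. As shares of all members and all genes these are 61.7% and 36.8%, which repeat the vehicle shares. By limma on covered length, H3K27me3 fell at 52 of the 67 members tested and rose at none (Benjamini-Hochberg over all genes, threshold 0.05), beside 60.2% of the 9601 genes tested that fell. The members called lower made up 12 of 13 tested K2P genes, 15 of 19 Kv, 7 of 8 silent Kv, 7 of 11 Kir, 4 of 6 calcium or sodium activated and 7 of 10 auxiliary genes. The other 6 marked members did not pass, namely KCNAB3, KCNJ1, KCNJ4, KCNJ5, KCNK18 and KCNQ1. Every tested member had 0 bp in both EPZ011989 libraries. Whether it was called thus depended on its vehicle lengths and how closely they agreed, so these counts do not compare the loss between groups. At 17 of the tested members the replicates did not differ at all within either group, so their very small p-values carry little information.

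The values behind these calls were large. At KCNA1, a Kv1 gene of fast axons at chr12:4909905-4918256, H3K27me3 covered 9824 and 10002 bp in vehicle and 0 in both EPZ011989 libraries (difference −9913 ± 86.5 bp, SE, limma adjusted p = 0.000222). KCNK9, the TASK3 leak channel gene, had 7780 and 10002 bp (adjusted p = 0.0229, limma). KCNK5, another acid-sensitive leak channel gene, had 8477 and 9283 bp (adjusted p = 0.00392, limma). The calls at both leak channel genes were lost without either EPZ011989 library (adjusted p = 0.206 at KCNK9 and 0.0947 to 0.0948 at KCNK5, limma), and that at KCNK9 also with the replicate block (adjusted p = 0.11) and that at KCNK5 with only peaks of −log10 q of at least 5 (0.0803). The vehicle and EPZ011989 values of these genes did not overlap, the latter all being 0. A shorter covered length also fell, as at KCNJ15, a Kir gene, with 1994 and 1974 bp in vehicle and 0 with EPZ011989 (adjusted p = 5.63e-05, limma). KCNJ1, the renal ROMK gene, had 514 and 3634 bp, and with that spread its difference did not pass (adjusted p = 0.327, limma). Without EPZ011989 replicate 1, and equally without replicate 2, 33 members were called. Because the treated libraries were also shallower, less of the mark and less sequencing cannot be told apart from these lists alone.

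The only H3K27me3 peaks with EPZ011989 inside any KCN gene were 3 short ones in replicate 1. They lay in the bodies of KCNH1 (460 bp), KCNMA1 (414 bp) and KCNT2 (483 bp), 55.5 to 365.3 kb from the nearest gene end. No called vehicle peak lay beneath any of them. They were weak by the authors' statistic, with −log10 q of 1.34 to 1.94.

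The third comparison was of H3K4me3 with EPZ011989 and vehicle. At 33 members both EPZ011989 values were above both vehicle values, and at 3 both were below (KCNH4, KCNH6 and KCNH8), beside 24.4% and 12.7% of the 13796 genes tested. Around the annotated start of KCNH4 the groups overlapped, with 1671 and 1836 bp in vehicle and 1837 and 1704 bp with EPZ011989. An end of RAB5C lies in the KCNH4 window. Around the annotated start of KCNH6 all 4 libraries covered the full 5001 bp. By limma no member passed the threshold in either direction, and neither did any gene (0.0% higher and 0.0% lower). The smallest adjusted p of a member was 0.073, at KCNA1. With windows of 5000 bp to each side KCNA1 and KCNK9 passed (limma adjusted p = 0.0242 and 0.0402), beside 35 of 14342 genes tested. At an unadjusted p under 0.05 there were 20 members higher and 0 lower of the 61 tested, beside 8.41% and 1.48% of all genes tested. Of these 20, all but KCNG3 had H3K27me3 in both vehicle libraries, beside 58 of all 94 members. The 20 could come only from the 61 tested, so the 94 are a wider base. Of the 51 members with H3K4me3 in all 4 libraries, 33 had H3K27me3 in both vehicle libraries. The share with H3K27me3 among all genes at this unadjusted p was not counted. Of the 20, 15 had no other gene's end in the window. By group they were 10 Kv, 4 K2P, 2 Kir, 2 silent Kv, 1 calcium activated and 1 auxiliary gene. H3K4me3 was gained at 3 members, meaning that each EPZ011989 library had a peak and no vehicle library did (KCNA6, KCNK1 and KCNK6, beside 0.921% of all genes), and none lost it (0.14%). At 4 members both EPZ011989 values were at least 1000 bp above both vehicle values (among them KCNA1, KCNK9 and KCNN1, beside 0.741%), and the opposite was seen at none (0.025%). All of these 7 had vehicle H3K27me3, and its share among the gained or widened genes of the genome was not counted.

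**Figure D3:**
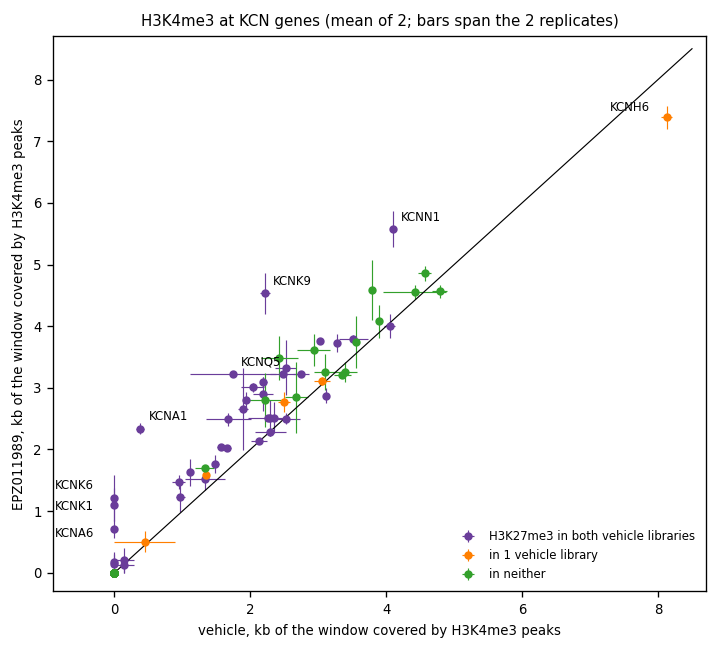
H3K4me3 peak coverage of KCN windows in kilobases, for the members shown, vehicle mean (horizontal) against EPZ011989 mean (vertical), coloured by vehicle H3K27me3, with bars spanning the 2 replicates and the line of equal values. KCNA1, KCNK9 and KCNN1 lie above the line, KCNK1, KCNK6 and KCNA6 lie at 0 in vehicle, and KCNH6 lies below it.

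Among the Kv genes the widest difference was at KCNA1. Its H3K4me3 covered 322 and 438 bp in vehicle and 2253 and 2426 bp with EPZ011989 (difference 1960 ± 171 bp, SE, limma adjusted p = 0.073). The 2 vehicle peaks did not overlap each other, one lying before the lower gene end and the other after it, and each EPZ011989 peak spanned both places. Its tallest summit held 6 and 9 fragments in vehicle and 49 and 24 with EPZ011989. KCNA6 (chr12:4809334-4851112), its neighbour, had no H3K4me3 in vehicle and 571 and 861 bp with EPZ011989 (limma adjusted p = 0.314). KCNA5, the third gene of that span and a cardiac Kv1 gene, had no H3K4me3 in any of the 4 libraries. Over the whole span of the 3 genes H3K4me3 covered 0.67 and 0.86 kb in vehicle and 3.45 and 3.16 kb with EPZ011989. KCNA7, another Kv1 gene fully inside H3K27me3, had 340 bp in 1 EPZ011989 library alone, at the gene end opposite its start.

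**Figure D4:**
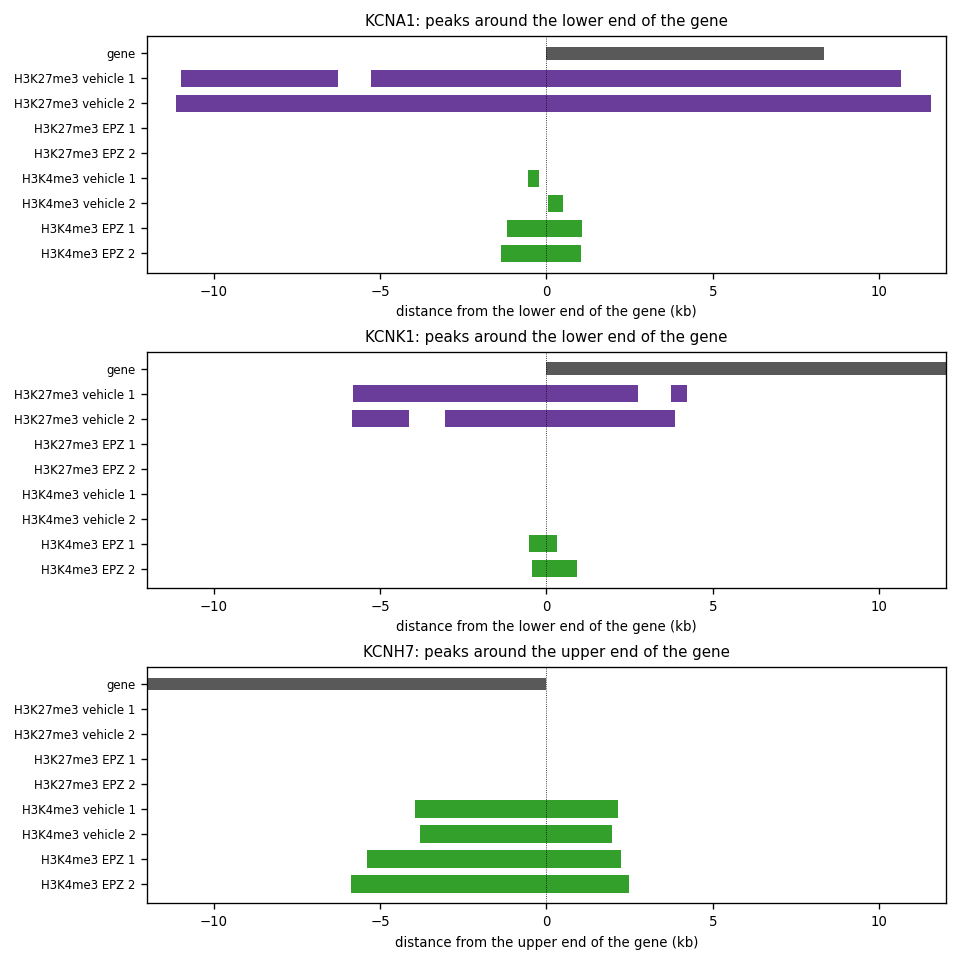
Peaks of the 8 H3K27me3 and H3K4me3 libraries around 1 end of KCNA1, KCNK1 and KCNH7, by distance from that end in kilobases, with the gene as a grey bar. At KCNA1 and KCNK1 the purple H3K27me3 bars are in the vehicle libraries alone, H3K4me3 in green is wider or present with EPZ011989, and at KCNH7 green bars are present in all 4 libraries and there is no purple.

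KCNQ5 (chr6:72622064-73198853), a broadly expressed M-channel gene, had 1114 and 2375 bp of H3K4me3 in vehicle and 3262 and 3184 bp with EPZ011989 (limma adjusted p = 0.376). Its vehicle replicates differed more than those of KCNA1, but neither reached the EPZ011989 values. KCNQ1, the cardiac and epithelial member, had 2136 and 2238 bp and then 3180 and 3006 bp (limma adjusted p = 0.258). KCNQ3, with H3K27me3 in 1 vehicle library, had 2932 and 3168 bp and then 3170 and 3047 bp, and those groups overlapped.

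Of the K2P genes, KCNK9 had the longest difference of any member. Its H3K4me3 covered 2149 and 2283 bp in vehicle and 4861 and 4202 bp with EPZ011989 (difference 2316 ± 278 bp, SE, limma adjusted p = 0.129). KCNK1 (TWIK1) had no H3K4me3 in vehicle and 841 and 1371 bp at its start with EPZ011989 (limma adjusted p = 0.222). KCNK6 (TWIK2) had none in vehicle and 1592 and 842 bp with EPZ011989 (limma adjusted p = 0.277), with an end of YIF1B in the same window. The starts of both are among the sequences above. The 6 K2P genes in H3K27me3 that had no H3K4me3 in any library were KCNK5, KCNK10, KCNK15, KCNK16, KCNK17 and KCNK18, so a window that had no H3K27me3 peak with EPZ011989 did not always have H3K4me3. KCNK4 and KCNK13, which had both marks, had overlapping H3K4me3 values in the 2 groups (2070 and 2520 bp against 2346 and 2220 bp at KCNK4). Around the annotated start of KCNK4 vehicle H3K4me3 covered 0 and 359 bp, and ends of GPR137 and CATSPERZ lie in its window.

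Outside these groups, KCNN1, which encodes the small-conductance calcium-activated SK1 channel, had 4099 and 4093 bp in vehicle and 5860 and 5280 bp with EPZ011989 (limma adjusted p = 0.225). An end of ARRDC2 lies in its window. The annotated start of KCNN1 lies inside the gene. Around it H3K4me3 covered 971 and 592 bp in vehicle and 1298 and 1043 bp with EPZ011989. KCNG1, a silent Kv subunit gene, had 1869 and 2201 bp and then 3081 and 2939 bp (limma adjusted p = 0.269). KCNG3, of the same kind but with no vehicle H3K27me3, had 2150 and 2707 bp and then 3837 and 3120 bp (limma adjusted p = 0.407), with an end of MTA3 in its window. In each of these 3 the groups did not overlap. Among the 16 auxiliary genes only KCNIP2 and KCNIP4, which encode Kv4-binding calcium sensors, had EPZ011989 values above vehicle without overlap. KCNIP4 had 1623 and 1509 bp and then 2007 and 2066 bp.

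The members with wide H3K4me3 and no H3K27me3 in any library showed no common direction. KCNH8 covered 4899 and 4680 bp in vehicle and 4670 and 4458 bp with EPZ011989. KCNH7 had 4661 and 4472 bp and then 4736 and 4978 bp, and KCNH5 had 4878 and 3954 bp and then 4446 and 4664 bp. KCNN2, the SK2 gene, had 3842 and 3933 bp and then 4351 and 3813 bp. KCNH2, the gene of the hERG channel, had 3805 and 3789 bp and then 4095 and 5070 bp. The smallest adjusted p of these 5 was 0.59 by limma, at KCNH2. KCNH6 is not among these 5, as it had 470 bp of H3K27me3 in vehicle replicate 2. It had the widest H3K4me3 of all members, 8208 and 8046 bp in vehicle and 7578 and 7195 bp with EPZ011989 (limma adjusted p = 0.642). Its window has an end of DCAF7.

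Split by vehicle H3K27me3, members with H3K4me3 in all 4 libraries differed as follows. In the 33 with H3K27me3 in both vehicle libraries the median difference of H3K4me3 was 514.5 bp, beside 205.5 bp over the 4803 such genes of the genome. Without overlap, 22 were above and 1 was below (40.8% of such genes, 1961, were above and 293 below). In the 14 with no vehicle H3K27me3 the median difference was 190 bp, beside −35 bp over 6361 genes, and 5 were above and 1 below (12.9% of such genes, 819, were above and 1179 below). Library by library, the median difference of the 33 was 563 and 716 bp for EPZ011989 replicate 1 against vehicle replicates 1 and 2, and 383 and 580 bp for replicate 2. For the 14 it was 399.5 and 455 bp for replicate 1 but −57.5 and 103.5 bp for replicate 2. The EPZ011989 replicates covered 46.1 and 39.0 Mb genome-wide beside 41.0 and 42.0 Mb in vehicle, and the part of that difference in the members' values was not tested. The difference between the classes was not tested.

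Summit heights give a second reading of the same lists, in which library depth enters as a divisor. The tallest H3K4me3 summit in a window, in fragments, was divided by its library's background. On a log2 scale the median difference of EPZ011989 from vehicle was −0.65 over 12499 genes, −0.12 over the 50 members measured, 0.12 over the 32 with vehicle H3K27me3 and −0.36 over the 14 without. The same medians for all genes with and without H3K27me3 were −0.43 and −0.74, so the members' medians lay above them in both classes. The difference was above 0 at 20 of the 50 members, beside 1224 of the 12499 genes. Members with large falls were KCNAB3 with −1.04, KCNAB2 with −0.91 and KCNN2 with −0.91. Members with large increases were KCNA1 with 1.27, KCNN1 with 1.05, KCNK9 with 0.87 (16 and 22, then 100 and 44 fragments) and KCNQ5 with 0.71. No member passed limma on this scale (0.008% of genes were higher and 0.008% lower), and the unadjusted p was 0.0365 at KCNA1. Replicate 1 with EPZ011989 was higher than replicate 2 at KCNA1, KCNN1, KCNK9 and KCNQ5. At the 3 genes that gained H3K4me3, summits were 18 and 9 fragments at KCNA6, 28 and 13 at KCNK1, and 35 and 14 at KCNK6. Scaled to the background of the vehicle libraries these come to 4.14 to 10.5 fragments at KCNA6, 5.98 to 16.3 at KCNK1 and 6.44 to 20.3 at KCNK6, where the lowest summit called in vehicle held 4 and 5 fragments. KCNA6 thus lay nearest the limit of detection.

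**Figure D5:**
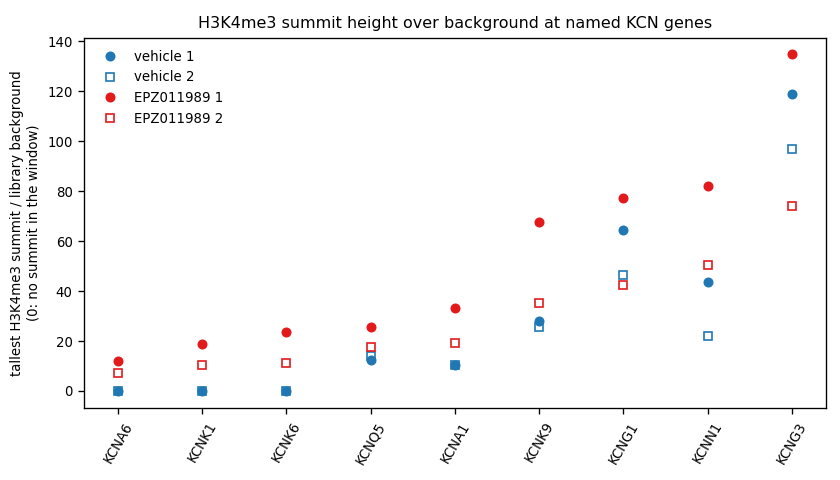
Tallest H3K4me3 summit in the window divided by the library background (vertical axis, 0 where no summit was called) in each of the 4 libraries at 9 KCN genes, ordered by the EPZ011989 mean, vehicle in blue and EPZ011989 in red. Both EPZ011989 points lie above both vehicle points at KCNA1, KCNK9 and KCNN1, and the points interleave at KCNG1 and KCNG3.

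Genes of potassium transport and channel partners without a KCN symbol, 41 in a list of HCN, CNG, sulfonylurea receptor, DPP, LRRC, scaffold, sodium pump and cation-chloride cotransporter genes, were given the same reading. H3K27me3 was in both vehicle libraries at 24 of them (58.5%, beside 61.7% of KCN genes and 36.9% of all genes). H3K4me3 was at 23 (56.1%, beside 55.3% and 65.0%). Both marks were at 14 (34.15%, beside 36.2% and 24.2%) and H3K27me3 without H3K4me3 at 9 (21.95%, beside 23.4% and 11.6%). These vehicle shares were thus close to those of the KCN genes. H3K27me3 fell at 17 of 27 tested by limma, beside 60.2% of all genes tested. H3K4me3 was above vehicle without overlap at 8 of 26 tested and below at 4 (24.4% and 12.7% of all genes tested), with 0 gained and 0 expanded by 1000 bp, and 1 passed an unadjusted p of 0.05. ABCC8, the sulfonylurea receptor that partners the pancreatic Kir channel, had 5001 and 5524 bp of H3K27me3 in vehicle. Its H3K4me3 was 0 and 65 bp in vehicle and 688 and 617 bp with EPZ011989 (limma adjusted p = 0.316).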

How the data were processed

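Each of the 12 libraries came as 1 peak list on hg38. The submitters' processing notes name MACS2 2.1.1.20160309, Bowtie2 2.2.9, SAMtools 0.1.19 and FastQC. Calling thresholds, control libraries and any use of a spike-in are not given in the sources used here. Lists are broad for H3K27me3 and narrow for H3K4me3 and IgG, as the authors deposited them. Each deposited peak has a fold, a ratio of pileup to background, a −log10 p and −log10 q from the authors' MACS2 run, and an integer score that follows the −log10 q. Start and end coordinates, in base pairs, are the deposited positions.

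Covered length in gene windows was computed in Python 3.11.15 (pandas 2.3.3, numpy 2.4.6, scipy 1.17.1) and tested by limma 3.58.1 (R 4.3.3, trend and robust), each mark apart, in genes that any of the 4 libraries marked, with no scaling between libraries. The code was tested on simulated data. Gene positions and starts are from RefSeq tables of GRCh38.p14, which give a start and strand for 70 of the 94 members. For every H3K4me3 peak that could be solved, fold and −log10 p together gave 1 background per library, and all summit heights came out whole within 0.05 fragments. The background taken from them is a stand-in for depth, since the number of reads is unknown. For broad H3K27me3 peaks this could be solved for 10.5% to 60.0% of peaks. Named genes were members with H3K4me3 gained, lost or changed by 1000 bp, the 10 largest H3K4me3 differences, the 10 longest vehicle H3K27me3, the 5 longest H3K4me3 without H3K27me3, and the leading gene of each subfamily. A few genes that this rule names enter the counts but are not reported here by name or in the figures. Others are named where a count was small or a contrast was drawn, and were chosen after their values were seen. Members and gene lists were chosen with earlier results of these data known. Alternatives were other windows, a −log10 q of at least 5, quantile normalization, no filter, a replicate block and leaving out each library.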

Additional observations from a re-analysis of the deposited data

How the results depend on the processing

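H3K27me3 was lower at 52 members in the reported comparison and at 32 with peaks of −log10 q of at least 5. The count was 40 to 56 with other windows, whole genes with 2500 bp flanks, no filter, quantile normalization or the replicate block (42). The fit with no filter was made without limma's robust option, which could not be fitted there. Leaving out 1 library gave 33 to 66, the lowest without either EPZ011989 library. The counts without a vehicle library cannot test how stable the result is. All EPZ011989 values of the members are 0, so 1 remaining vehicle library leaves no spread between replicates. Every member with a peak in that library was therefore called. Quantile normalization forces equal distributions and called 10 members higher, beside 3301 of the 9601 genes tested. Over all genes 4555 of 9601 were lower with the replicate block and 3301 of 4470 with the stricter q. Marked members numbered 58, and 34 with the stricter q. H3K4me3 was higher at 0 members as reported and with the replicate block. It was higher at 2 with a 5000 bp window (KCNA1, adjusted p = 0.0242, and KCNK9, 0.0402, limma), beside 35 of 14342 genes. With quantile normalization 2 were called (KCNA1, 0.0247, and KCNK9, 0.0131, limma adjusted p), beside 89 of 13796 genes. Without the filter, where windows empty in all libraries enter the fit, 8 were called, beside 491 of 19974 genes. Over all alternatives the limma adjusted p ran from 9.11e-12 (no filter) to 1.0 (without either vehicle library) at KCNA1 and from 6.34e-11 to 1.0 at KCNK9. The count wider by 1000 bp was 4, with 1 for a 1000 bp window, 15 for a 500 bp threshold, and 1 (KCNA3) at gene starts, where the inner start is used. Leaving out 1 library gave 5 to 9 wider, 3 to 6 gained and 0 to 1 lost. The largest of these were 9 wider and 6 gained without EPZ011989 replicate 2, and 5 were gained without vehicle replicate 2. The H3K4me3 difference at KCNG1 was −46.0 bp in the 1000 bp window. The H3K27me3 call at KCNK9 was lost with the replicate block (adjusted p = 0.11, limma) and that at KCNK5 with the stricter q (0.0803). Deviations of same-numbered replicates correlated at −0.03 for H3K4me3. For H3K27me3 nearly all EPZ011989 values are 0, so pairing could not be checked. Leaving out either EPZ011989 library also lost the calls at these 2 genes (adjusted p of 0.0947 to 0.206, limma). The causes of these shifts were not tested. A design of 2 libraries per group, lists without read counts, depth that differs between treatments and windows shared with neighbouring genes limit these values.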

Other observations

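At the annotated start of KCNA3, a Kv1 gene of lymphocytes and neurons whose start lies inside the gene, H3K4me3 covered 3989 and 3654 bp of the 5001 bp around the start in vehicle and all 5001 bp in both EPZ011989 libraries. H3K27me3 there covered 2369 and 2659 bp in vehicle and 0 bp with EPZ011989. The window at the gene ends of KCNA3 showed less, 2859 and 2631 bp of H3K4me3 and then 3172 and 3271 bp.

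Linked Kir genes had smaller covered shares than the Kv1 group on chromosome 12 and the K2P group on chromosome 6. Over the 53.1 kb with KCNJ10 and KCNJ9 the vehicle shares were 34.4% and 42.0%. Over the 83.1 kb with KCNJ1 and KCNJ5 they were 20.7% and 28.9%, and over the 104.8 kb with KCNJ16 and KCNJ2 they were 5.5% and 6.5%. No H3K27me3 peak was listed in these spans with EPZ011989.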
